A study of Sardinops sagax and Scomber japonicus with 20 samples.

Results

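Genes of the sarcomere and of striated muscle were described in liver RNA sequencing of 2 fish species, Sardinops sagax (Pacific sardine) and Scomber japonicus (chub mackerel). Rows were taken where the human gene symbol of a table equalled a symbol of a list of 50 genes for heart, slow and fast fibre proteins, with the tropomyosins left out. Of the 50 genes, 38 had a row in either table, out of 9374 symbols in all. They comprised 35 of 5423 symbols and 65 of 6716 rows in sardine, and 20 of 7400 symbols and 36 of 9191 rows in mackerel. The list was chosen by the fold changes of these same tables, so the fold changes and calls of its members below are descriptions and not tests.

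In each species 5 adult males were kept for 5 h in seawater with EE2 (17α-ethynylestradiol, a synthetic estrogen used in contraception) at 12.5 pM, and 5 unexposed adult males served as controls. The fish came from a live bait receiver and were held at ambient temperature before the experiment. Each species has 1 result table of a comparison of its exposed and control fish. Whether exposed or control fish are on top of the fold change is not recorded. Values are given instead for the positive side, where a fold change above 0 means a higher level, and for the negative side, and no difference is assigned to exposure.

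The sarcomere is the contractile unit of heart and skeletal muscle. Myosin thick filaments pull on actin thin filaments, and the troponin complex on the thin filament makes this depend on calcium. Titin and nebulin span the filaments, Z-disc proteins anchor them, and desmin ties neighbouring myofibrils together. Calcium is stored, released and taken back by the sarcoplasmic reticulum, while creatine kinase and myoglobin serve energy and oxygen supply. Heart, slow and fast fibres use different members of most of these families, and hepatocytes are not known to build sarcomeres. The fibre classes used here (heart, heart and slow, slow, fast, shared) follow the use of the genes in mammals, and fish paralogues need not follow it.

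No values per fish were at hand, but the deposited mean normalized counts lie on a grid from which whole reads were recovered. In sardine the means were sums over 5 whole numbers for the positive side, called libraries A to E here, and 1 whole number for the negative side. Libraries A to E cannot be tied to named fish, and the single negative-side number holds no spread between fish. Why the negative side gave 1 number, and how many fish it covers, is not known. Sardine differences below need not describe a group of 5 fish on that side. Positive-side reads of a sardine row are totals over the 5 libraries, so equal totals on both sides are not equal levels. In mackerel each side gave 1 number, and every mean also held the same added constant, whose origin is not known. Deposited mackerel fold changes need not equal the ratio of the reads. Rows of MYH2 with 1 read stood at 0.25 with the read on the positive side and at -0.70 with it on the negative side. Rows with the same recovered numbers had the same standard error (SE) in all 15 negative-side numbers shared among sardine rows without positive-side reads and in all 358 pairs shared among mackerel rows. The SE and adjusted p of the authors' deposited table therefore hold no spread between fish on the sardine negative side or on either mackerel side. In whole liver, fewer muscle cells and less RNA per cell cannot be told apart.

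Depth was low. The sardine negative side held 125299 reads, of which the recovered and estimated reads of members made up 11995. In the 5504 sardine rows solved for single reads, libraries A to E held 9864, 10883, 6976, 6298 and 6573 reads. These rows were searched for their low positive side, so the numbers are not the depth of the libraries. They came to 8084 to 9541 normalized counts per library. Over all sardine rows the positive side summed to 215801 normalized counts as a mean of 5 libraries, and the negative side to 110948. Mackerel had 376343 positive-side and 332486 negative-side reads. Markers of hepatocytes took 21.2% of positive-side and 8.62% of negative-side normalized counts in sardine, and 15.8% of positive-side and 19.9% of negative-side reads in mackerel. PCR copies were not marked by molecular identifiers and reads are not independent molecules; all intervals and floors cover counting error only.

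In sardine the muscle genes were almost all on the negative side. At an adjusted p under 0.05 in the authors' deposited table, 4 of 65 member rows were called positive (higher on the positive side) and 45, from 27 symbols, negative. Over all rows 30.5% were called positive, 16.1% negative and 46.5% either way; since this contrast chose the members, nothing is read from the difference. The median log2 fold change of the member rows was -5.62, or -4.00 with rows at 0 reads on a side set to their bound, against -0.19 over all rows. Single reads were searched only in rows with a low estimated positive side, which left out CASQ2 and SYNPO2L. Among the 63 member rows solved, no more than 28 reads of a row came from the 5 positive-side libraries together. That maximum is partly set by the search and is only a description. In 19 of the 65 rows no positive-side read was recovered, against 12.0% of all rows, and in 54 of the 63 solved rows every positive-side library lay below the negative side, against 41.0% of all solved rows.

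**Figure D1:**
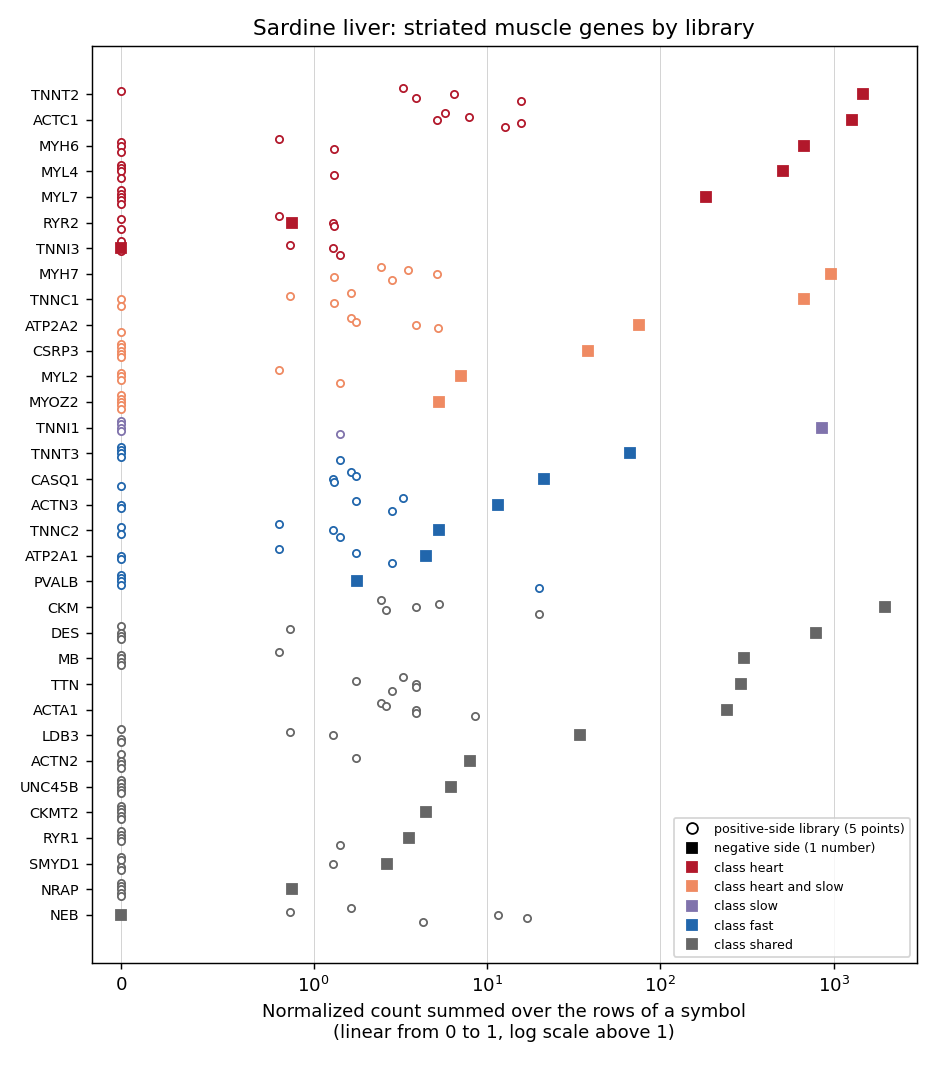
Normalized counts of the striated muscle genes in sardine, summed over the solved rows of a symbol, on an axis that is linear from 0 to 1 and logarithmic above. Open circles are positive-side libraries A to E and filled squares the negative-side number; for TNNT2, ACTC1, MYH7 and CKM the square stands far to the right of all 5 circles, while for PVALB, NEB, RYR2 and TNNI3 it does not.

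The plot of normalized counts by library shows the distance for each symbol. The thick filament comes first. MYH6, the cardiac alpha myosin heavy chain, had 1, 0, 0, 1 and 0 reads in libraries A to E, against 760 on the negative side. Its log2 fold change in the authors' deposited table was -10.36 ± 0.94 (SE; adjusted p 8.58e-26), and the log2 ratio of the read totals was -10.60 (95% exact binomial interval -13.65 to -8.74). All 5 libraries were near or at 0.

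MYH7, the myosin heavy chain shared by heart and slow fibres, had 3 curated rows with 3, 1 and 0 positive-side reads, against 524, 333 and 238 on the negative side. The authors' deposited table gave the first of them -9.32 ± 0.80 and the second -9.98 ± 1.22, with read ratios of -9.48 (-11.76 to -7.92) and -10.41 (-15.72 to -7.92) on the log2 scale. The third was lower on the positive side by at least 307-fold, against a floor of 3 reads over the 5 libraries. The remaining rows of MYH7, both predicted records, went the other way, with 6 and 4 positive-side reads against 0 negative-side reads. The row with 6 reads (1, 2, 1, 1 and 1 in libraries A to E) was called positive in the authors' deposited table, at 4.75 ± 2.05. Its positive-side mean of 1.32 normalized counts was under the 2.66 that 3 reads are worth on the negative side, so no fold is given for it.

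The atrial light chains MYL4 and MYL7 were read almost exclusively on the negative side. MYL4 had 1 positive-side read, in library D, against 553 negative-side reads in its main row, and 0 against 23 in its other row. The authors' deposited table gave the main row -10.69 ± 1.20, with a read ratio of -11.14 (-16.45 to -8.65) on the log2 scale, and the other row was lower there by at least 29.7-fold. MYL7 had 0 reads in all 5 libraries, against 206, a difference of at least 266-fold. MYL2, the light chain of ventricle and slow fibres, had 2 reads against 8, placed at -3.92 ± 1.06 by the authors' deposited table, and a read ratio of -4.03 (-7.30 to -1.70).

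TTN, the giant elastic protein titin, had 1 positive-side read (library E) against 330 negative-side reads in the row with the highest mean. That row stood at -9.97 ± 1.21 in the authors' deposited table, with a log2 read ratio of -10.39 (-15.70 to -7.91). All 3 TTN rows were predicted records. The second ran opposite, with 4, 1, 2, 2 and 1 reads in libraries A to E against 0, and was called positive at 5.43 ± 2.00 in the authors' deposited table. Its mean of 2.15 normalized counts again lay under the floor of the negative side. The last TTN row had 3 reads against 0 and was not called.

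On the thin filament the largest read numbers belonged to rows named for cardiac actin and cardiac troponin T. ACTC1, cardiac actin, had 2, 3, 1, 3 and 7 reads in libraries A to E against 982 on the negative side in its main row, NM_131591.1. The authors' deposited table put that row at -7.92 ± 0.40 on the log2 scale (adjusted p 4.49e-83). Further ACTC1 rows had 6, 10 and 7 positive-side reads against 256, 123 and 83, with -7.38 ± 0.60, -5.62 ± 0.49 and -5.54 ± 0.58 in the authors' deposited table. All 5 libraries held ACTC1 reads in the main row and none came near the negative side. The last row of ACTC1 had 2 reads over the 5 libraries against 2, at -1.95 ± 1.23 in the authors' deposited table, and was not called.

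ACTA1, skeletal actin, had 3, 2, 1, 3 and 4 reads against 146 in one row and 0, 1, 2, 0 and 2 against 129 in the other. Their fold changes were -5.48 ± 0.44 and -6.64 ± 0.66 in the authors' deposited table. Actin genes are nearly identical in their coding sequence, and how the authors' counting treated reads shared among them is not stated in the sources used here. The split of reads between ACTC1 and ACTA1 is therefore uncertain, as it is among the paralogous rows of the myosins and troponins.

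TNNT2, the cardiac form of the troponin subunit that binds tropomyosin, had 0, 0, 1, 1 and 0 reads in libraries A to E against 1354 in its main row, NM_152893.1. The authors' deposited table gave -11.17 ± 0.93, and the log2 read ratio was -11.43 (-14.48 to -9.58). A further TNNT2 row had 1 read against 304 and -9.85 ± 1.22 in the authors' deposited table, with a read ratio of -10.28 (-15.58 to -7.79). Rows of the same symbol did not all look alike: NM_181499.3 had 3, 0, 4, 0 and 11 reads against 7, and the authors' deposited table gave it -0.47 ± 0.83 (adjusted p 0.616), and its libraries overlapped the negative side. The predicted TNNT2 row had 2 reads against 5, at -3.25 ± 1.10 in the authors' deposited table, with a read ratio of -3.35 (-6.74 to -0.74).

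TNNT3, the fast counterpart of TNNT2, had 1 read against 59 and 0 against 16. The first row stood at -7.57 ± 1.26 in the authors' deposited table, with a read ratio of -7.91 (-13.24 to -5.38), and in the other the positive side was at least 20.7-fold lower. The inhibitory troponin of slow fibres, TNNI1, had 4 rows with 0, 1, 0 and 0 positive-side reads against 553, 319, 82 and 9. Its rows without positive-side reads were at least 714-fold, 106-fold and 11.6-fold lower there, and the row with 1 read was at -9.92 ± 1.21 in the authors' deposited table, with a read ratio of -10.35 (-15.65 to -7.86). In mammals TNNI1 is also the form of the embryonic heart. TNNI3, the inhibitory troponin of the adult mammalian heart, had 3 reads (libraries B, C and E) against 0 and was not called.

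TNNC1, the calcium-binding troponin of heart and slow fibres, had 2, 1, 0, 1 and 0 reads in libraries A to E against 578, with -9.09 ± 0.71 in the authors' deposited table, and 0 against 183 in its other row, at least 236-fold lower. TNNC2, the fast form, was read little on either side. Its called row had 3 reads against 5, at -2.69 ± 0.96 in the authors' deposited table, with a read ratio of -2.76 (-5.45 to -0.40), and its other row had 0 against 1. The fast troponins were thus on the negative side as well, on far fewer reads than TNNC1 and TNNI1; transcript lengths are not in the table, so levels of different genes are not ranked.

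Among genes of the Z-disc and of the filament lattice, DES (desmin) had 1 read, in library B, against 456 in one row and 0 against 437 in the other. The first was at -10.42 ± 1.21 in the authors' deposited table, with a read ratio of -10.86 (-16.17 to -8.38), and in the second the positive side was at least 564-fold lower. CSRP3, a Z-disc LIM protein, had 0 reads against 43, a difference of at least 55.5-fold. LDB3, also called ZASP, had 2 against 26 and 0 against 13, at -5.59 ± 0.995 in the authors' deposited table with a read ratio of -5.73 (-8.85 to -3.73), and at least 16.8-fold lower.

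The muscle alpha-actinins were lower in reads. ACTN2 had 2 reads against 8, at -3.93 ± 1.07 in the authors' deposited table with a read ratio of -4.03 (-7.30 to -1.70), and 0 against 1 in its other row. ACTN3, the fast-fibre form, had 2, 2, 0, 0 and 2 reads in libraries A to E against 10, at -2.74 ± 0.71 in the authors' deposited table. Its other row had 2 against 3, at -2.58 ± 1.20 in the authors' deposited table, and missed the threshold. MYOZ2, a calcineurin-binding Z-disc protein, had 0 against 5, 6.46-fold lower against the floor of 3 reads, and 0 against 1. NRAP, a protein of the junction between myofibrils and membrane, had 0 against 1.

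Both NEB and SYNPO2L were higher on the positive side, and both were predicted records with 0 negative-side reads. NEB, the thin-filament ruler nebulin, had 2, 1, 9, 13 and 3 reads in libraries A to E and was at least 2.66-fold higher (6.93 ± 2.00 in the authors' deposited table). SYNPO2L, a Z-disc protein, had a positive-side mean of 23631 normalized counts and was at least 8896-fold higher. That row alone carried the muscle share of the positive side, which was 10.99% of normalized counts with it and 0.04275% without it, against 9.573% on the negative side. Its reads could not be split among the 5 libraries. Whether the reads of this predicted record come from the gene of that symbol was not tested.

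Whether a record was curated or predicted moved with the side. Of the 12 predicted member rows 7 had 0 negative-side reads, and of the 53 curated ones 1 did (TNNI3), which makes 8 of 65 member rows. Among all sardine rows, 82.8% of predicted rows, 19.7% of curated rows and 40.4% of all rows had none. All 4 member rows called positive were predicted records, and among curated member rows 0 were called positive and 42 negative in the authors' deposited DESeq2 table, against 19.7% and 21.8% of all curated rows. The part of record type in these calls was not tested.

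**Figure D2:**
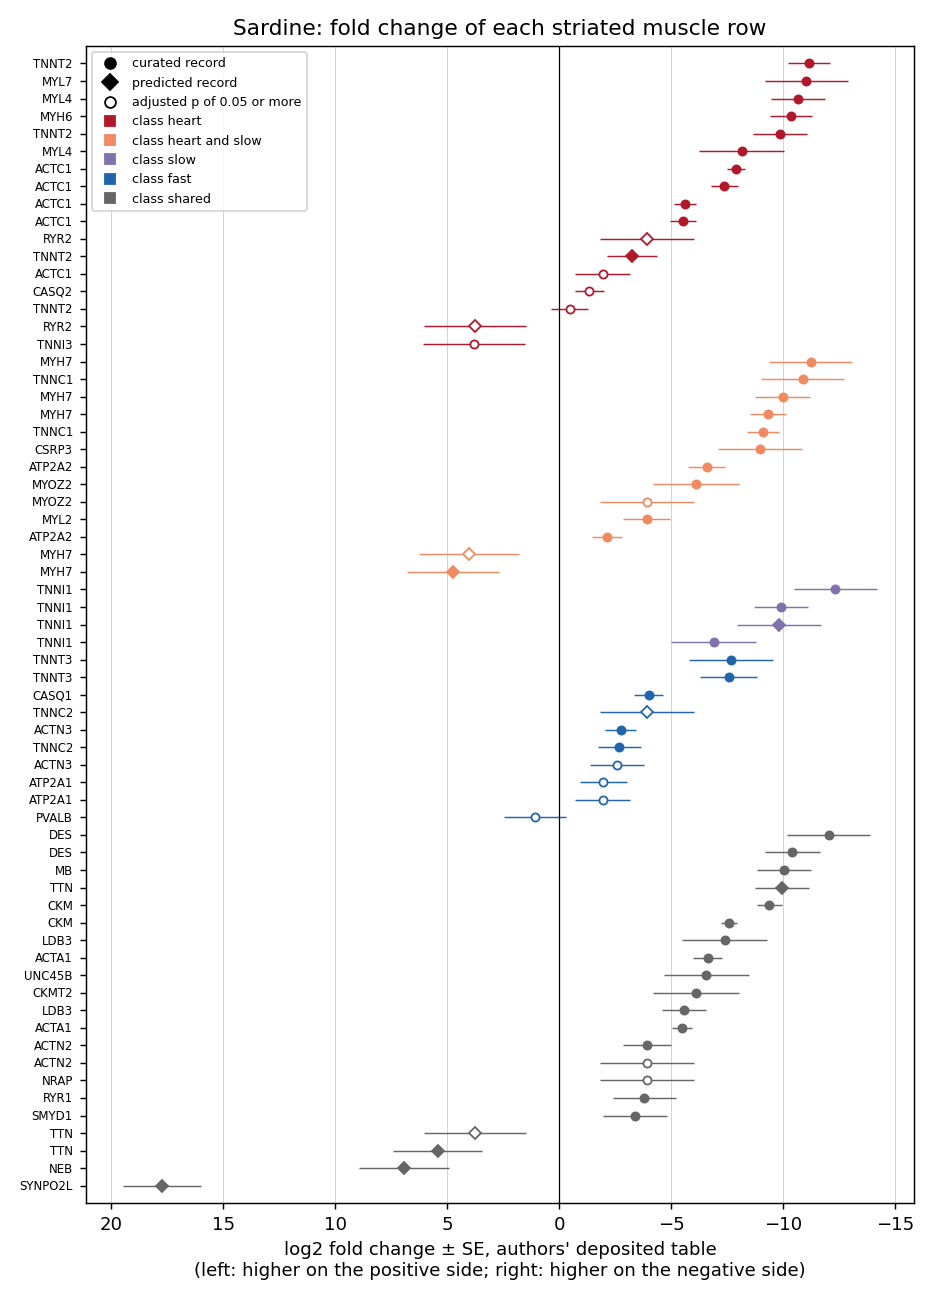
Log2 fold change with its SE in the authors' deposited table for each of the 65 sardine muscle rows, sorted within the fibre class; the axis runs from high positive values on the left to negative values on the right. Filled symbols are called rows, circles curated and diamonds predicted records; all filled symbols left of 0 are diamonds, and TNNI1 and DES stand farthest right.

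The plot of fold changes sets all rows side by side; for rows without reads on a side the plotted value depends on the authors' fit and is no bound. In calcium handling, ATP2A2, the calcium pump of heart and slow fibres, had 2, 0, 1, 0 and 0 reads against 76, at -6.58 ± 0.82 in the authors' deposited table with a read ratio of -6.69 (-9.00 to -5.09). Its other row had 0, 2, 2, 4 and 0 against 9 and was at -2.13 ± 0.68 in the same table. ATP2A2 is also the pump of many other cell types. ATP2A1, the fast-fibre pump, had 3 reads over the 5 libraries against 3, and 2 against 2. Its rows were at -1.98 ± 1.05 and -1.95 ± 1.23 in the authors' deposited table and were not called.

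CASQ1, the calcium-storing protein of fast fibres, had 2, 2, 1, 1 and 0 reads in libraries A to E against 24, at -4.00 ± 0.65 in the authors' deposited table. CASQ2, its cardiac relative, was too abundant on the positive side to be solved. It had about 36.0 positive-side and 92.1 negative-side normalized counts, and the authors' deposited table gave -1.35 ± 0.66 (adjusted p 0.0877), short of a call. The release channel of skeletal muscle, RYR1, had 1 read against 4, at -3.79 ± 1.41 in the authors' deposited table with a read ratio of -4.03 (-9.65 to -0.69). RYR2, the cardiac channel, had 0 against 1 and 3 against 0 in its rows, neither called.

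PVALB, parvalbumin, a calcium buffer of fast fibres, had 0, 0, 0, 0 and 14 reads in libraries A to E, against 2 on the negative side. Library E stood above the negative side and the other 4 below it, as in the TNNT2 row with 11 reads in library E. The fold change was 1.07 ± 1.38 (adjusted p 0.493) in the authors' deposited table.

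Energy supply followed the contractile genes. CKM, the muscle creatine kinase, had 0, 1, 1, 0 and 5 reads in libraries A to E against 1214 and 3, 5, 2, 2 and 9 against 1021, at -9.38 ± 0.56 and -7.59 ± 0.37 in the authors' deposited table (adjusted p 6.65e-60 and 3.09e-89). Library E was the highest of the 5 in both rows and still far below the negative side. MB, myoglobin, had 1 read, in library A, against 345, at -10.03 ± 1.22 in the authors' deposited table with a read ratio of -10.46 (-15.77 to -7.97). CKMT2, the sarcomeric mitochondrial creatine kinase, had 0 against 5 and was 6.46-fold lower against the floor of 3 reads.

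The assembly factors of myosin were read too. UNC45B, the muscle myosin chaperone, had 0 reads against 7, which puts the positive side 9.04-fold lower against the floor of 3 reads. SMYD1, a methyltransferase of heart and skeletal muscle, had 1 read against 3, at -3.39 ± 1.44 in the authors' deposited table (adjusted p 0.0452). The exact interval of its read ratio, -9.33 to 0.03 on the log2 scale, reached past 0.

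Closest to the threshold in sardine, the predicted MYH7 row with 6 positive-side reads had an adjusted p of 0.0484 in the authors' deposited table and was inside, and the ACTN3 row with 2 reads against 3 had 0.0705 and was outside.

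By fibre class, the sardine negative side held heart, slow and fast genes in very unequal numbers of reads. Heart genes had 4763 negative-side reads, genes shared by heart and slow fibres 1998, TNNI1 as the only slow gene found 963, fast genes 125 and genes shared by several fibre types 4146. In the class heart 0 rows were called positive and 11 of 17 negative. For heart and slow the calls were 1 positive and 10 negative of 13, and for slow 0 and 4 of 4. For fast they were 0 and 5 of 10, and for shared 3 and 15 of 21. Over all sardine rows 30.5% were called positive, 16.1% negative and 46.5% either way. Since this contrast chose the members, nothing is read from the class counts. The median fold changes of the classes were -5.62 for heart, -6.58 for heart and slow, -9.87 for slow, -2.72 for fast and -5.59 for shared; with rows at 0 at their bound they were -5.54, -5.80, -8.10, -2.63 and -3.93.

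The class sums of the positive-side libraries were small. Heart genes in solved rows summed to 10.7, 8.77, 14.2, 23.5 and 29.8 normalized counts in libraries A to E, against 4125 on the negative side. Fast genes summed to 6.56, 5.26, 2.59, 1.30 and 28.4, against 111. Library E was the highest positive-side library for heart, slow, fast and shared genes and the lowest for heart and slow genes. For slow genes this was 1 read in all, and PVALB gave 19.9 of the 28.4 fast counts of library E. No library reached the negative side in any class.

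**Figure D3:**
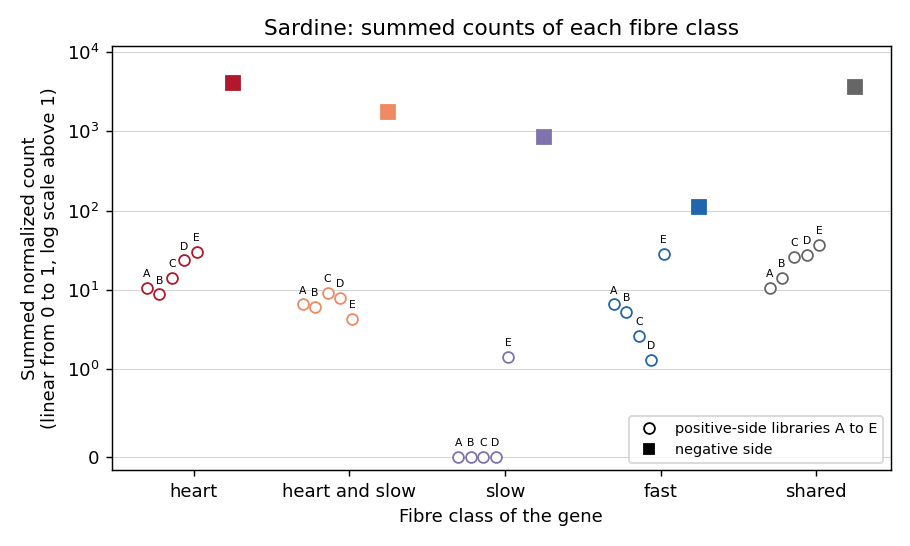
Summed normalized counts of each fibre class in the solved sardine rows, on an axis linear from 0 to 1 and logarithmic above; open circles are positive-side libraries A to E and squares the negative-side number. The square lies above all 5 circles in each of the 5 classes, and the gap is smallest for fast genes, where library E reaches 28.4 against 111 on the negative side.

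Over all 63 solved member rows libraries A to E held 42, 39, 40, 46 and 71 reads, against 11891 on the negative side. In normalized counts these were 34.4, 34.2, 51.7, 60.0 and 100.8, against 10529. The negative side was 187.3 times the mean of the 5 libraries, and 170.6 to 233.5 times when each library was left out. These ratios cover only solved rows, which were searched for their low positive side. Over all members the negative side was 115.1 times the positive side without SYNPO2L, and 0.4477 times with it. Members took 0.426%, 0.358%, 0.573%, 0.730% and 1.08% of the solved normalized counts of libraries A to E. On the same rows they took 10529 of 25764 negative-side normalized counts. Solved rows leave out most positive-side counts. Over all rows members without SYNPO2L took 0.04275% of the positive side and 9.573% of the negative side.

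The makeup of the muscle counts by class also differed between the sides of the sardine table. Without SYNPO2L, heart genes made up 57.9% of the positive-side and 39.7% of the negative-side muscle counts. The positive-side figure rests largely on CASQ2, at about 36.0 of 53.4 normalized counts. Slow genes made up 0.308% and 8.03%, and fast genes 9.56% and 1.04%, with PVALB in library E among the fast counts of the positive side. Over the solved rows, which leave out CASQ2, slow genes made up 0.505% and fast genes 15.7% of the positive side; without library E these were 0.00% and 8.71%. These shares are not corrected for transcript length.

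In mackerel the muscle genes were close to the limit of detection. The 36 member rows held 48 of 376343 positive-side and 112 of 332486 negative-side reads, that is 0.0128% (95% exact binomial interval 0.00940 to 0.0169%) and 0.0337% (0.0277 to 0.0405%). The ratio of the normalized counts of members, positive over negative side, was 0.347 (0.242 to 0.490). Mackerel read ratios below are ratios of normalized counts as well. Of the 36 rows 24 had fewer than 3 reads over both sides and 34 fewer than 10. The median was 2 reads a row, against 4 over all mackerel rows.

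The authors' deposited table gave an adjusted p to 20 of the 36 rows and called 1 positive and 3 negative. Over all mackerel rows with an adjusted p, 14.1% were called positive, 10.8% negative and 24.8% either way. A binomial test of the read pairs (exact, two-sided), adjusted by the Benjamini-Hochberg method over all rows, called 0 of the member rows positive and 2 negative, against 2.07% and 2.00% of all rows. It treats reads as independent, covers counting error only and holds no spread between fish. For members, chosen by these tables, its values are a description. The median fold change of member rows was -0.37, or 0.00 with rows at 0 at their bound, against 0.04 over all rows.

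NRAP held the most muscle reads of the mackerel table, with 3 positive-side reads against 45 negative-side reads. Its fold change was -3.32 ± 0.29 in the authors' deposited table (adjusted p 3.96e-27), and the read ratio was 0.0539 (exact 95% interval 0.0107 to 0.168). MB followed with 7 against 24 reads, with -1.74 ± 0.24 in the authors' deposited table (adjusted p 9.56e-11) and a ratio of 0.236 (0.0858 to 0.564). Without NRAP and MB no mackerel member row exceeded 9 reads over both sides.

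The other calls rested on 4 or 5 reads. TNNI2, the inhibitory troponin of fast fibres, had 0 reads against 5, at -1.78 ± 0.42 in the authors' deposited table. Its positive side was 2.06-fold lower against the floor of 3 reads, but the exact 95% interval of the ratio reached up to 0.883. The exact binomial test gave it an adjusted p of 0.282. An ACTC1 row had 4 reads against 0, at 1.10 ± 0.43 in the authors' deposited table. It was 1.08-fold higher against the floor of 3 reads, but the exact 95% interval of its read ratio began at 0.534, below 1. Its adjusted p by the exact binomial test was 0.866. This ACTC1 row, with an adjusted p of 0.0444 in the authors' deposited table, was the last inside the threshold, and 4 rows of 0 against 2 reads followed at 0.0627 (1 each of CKM, ATP2A2, TNNT2 and TNNT3).

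Of the mackerel rows that were not called, ATP2A2 had 5 reads against 4 and the ACTC1 rows with most reads 3 against 4 and 2 against 1. CKM had 2 against 2, ATP2A1 3 against 1 and the TTN rows 1 against 3 and 1 against 2. RYR2 had 1 against 2 in one row and NEB and MYBPC3, the cardiac myosin-binding protein, 1 against 1 each. The other rows held 1 or 2 reads over both sides, among them all rows of MYH6, MYH7, the fast myosin MYH2, TNNC1, CASQ2, DES and CKMT2.

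**Figure D4:**
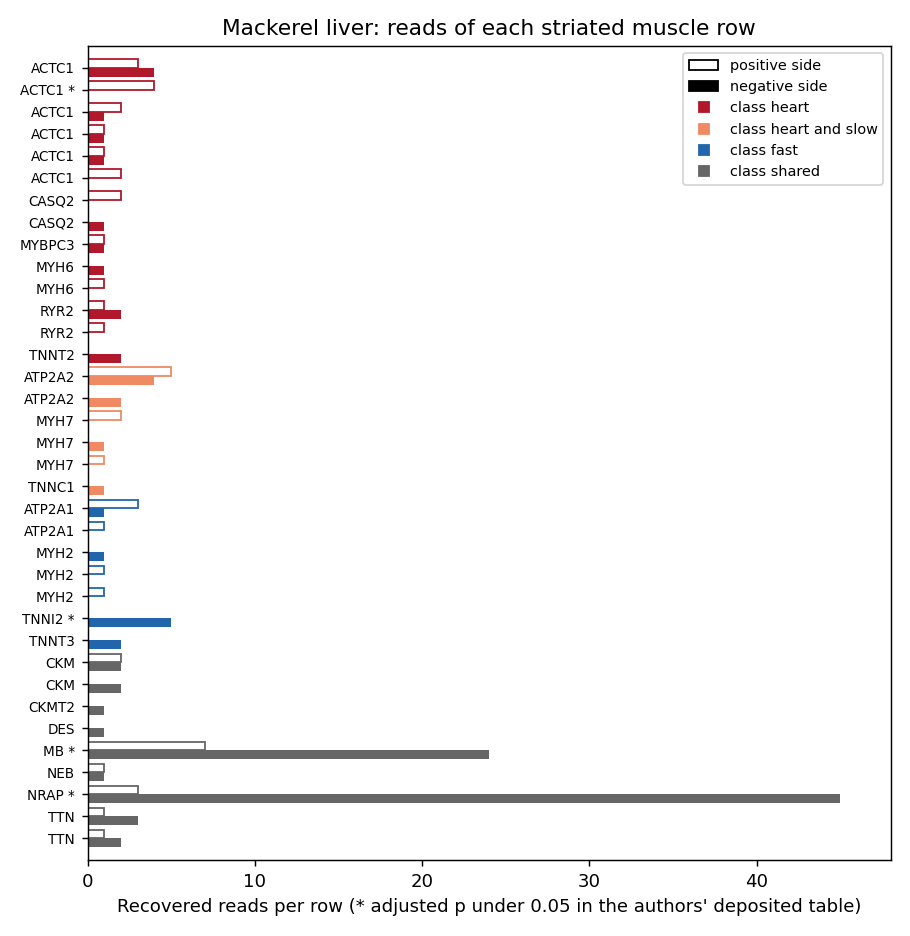
Recovered reads of each of the 36 mackerel muscle rows, with open bars for the positive side above filled bars for the negative side, coloured by fibre class; an asterisk marks rows called in the authors' deposited table. NRAP (3 against 45 reads) and MB (7 against 24) stand out, and no other bar exceeds 5 reads.

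By class, mackerel heart genes had 19 positive-side and 14 negative-side reads, a ratio of 1.10 (exact 95% interval 0.522 to 2.37). Heart and slow genes had 8 and 8, at 0.809 (0.265 to 2.47), and fast genes 6 and 9, at 0.539 (0.158 to 1.70). Shared genes had 15 and 81, at 0.150 (0.0802 to 0.262), and NRAP and MB were placed there. The class ratios depend on such placements. MB, with 7 against 24 reads, could also be placed with heart and slow genes, and ratios were not computed that way. No slow gene had a row in mackerel. These intervals hold counting error alone, describe genes chosen by these tables, and test no difference; those for heart, for heart and slow and for fast genes include 1, and rows of heart and fast genes were among the authors' calls.

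**Figure D5:**
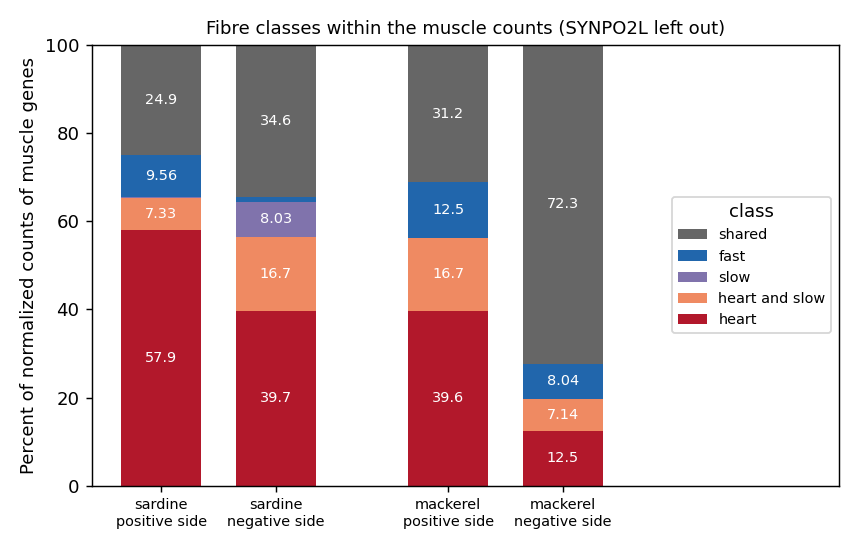
Percent of the muscle normalized counts (SYNPO2L left out) in each fibre class, stacked to 100 for the positive and the negative side of each species. Heart genes fill 57.9% of the positive and 39.7% of the negative side in sardine. In mackerel they fill 39.6% of the positive and 12.5% of the negative side. That negative side holds 112 muscle reads, of which 45 are NRAP and 24 MB. The sides need not be the same treatment in both species.

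The plot of class makeup sets the species beside each other. Heart genes took 39.7% of the muscle counts on the sardine negative side, against 39.6% (exact 95% interval 25.8 to 54.7%) of the mackerel positive-side muscle reads and 12.5% (7.01 to 20.1%) of the negative-side ones. In reads the mackerel heart genes had 19 and 14. The 112 negative-side muscle reads included 45 of NRAP and 24 of MB, so the lower heart share reflects this total. Shared genes took 31.2% (18.7 to 46.2%) of the mackerel positive-side reads and 72.3% (63.1 to 80.4%) of the negative-side reads, against 34.6% of the sardine negative side. Since the numerator is known for neither table, the negative sides of the species need not be the same treatment, and no contrast between species is drawn from them. The slow gene TNNI1 took 8.03% of the sardine negative side and had no row in mackerel. The difference between the species was not tested, since rows were named against different reference genomes and the tables were normalized separately.

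Of the members, 17 had rows in both tables, 18 in sardine only and 3 in mackerel only (MYH2, MYBPC3 and TNNI2). The 12 without a row in either table used here were MYH1, MYL1, MYL3, MYLPF, MYBPC1, MYBPC2, MYOM1, MYOM2, MYOZ1, TNNT1, TCAP and NPPA. By class, sardine rows covered 8 of 10 heart genes, 6 of 7 heart and slow, 1 of 3 slow, 6 of 13 fast and 14 of 17 shared genes, and mackerel rows 6, 3, 0, 4 and 7 of these. MB was the 1 gene called on the negative side in both species, and these sides need not be the same treatment. Only 20 of the 36 mackerel member rows had an adjusted p. The share of all genes called negative in both species was not computed, so nothing is read from this overlap. NRAP, with 3 against 45 reads in mackerel, had 0 against 1 in sardine.

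Further genes of striated muscle outside the member list lay mostly, but not all, the same way in sardine. This list too was chosen with earlier results of these data known, so its counts are descriptions and not independent support. Of 70 such genes 41 had sardine rows, and of their 50 rows 4 were called positive and 30 negative in the authors' deposited table. Over all sardine rows 30.5% were called positive and 16.1% negative. NKX2-5, a transcription factor of the heart, had 0 reads against 45, HAND2, another cardiac transcription factor, 0 against 22, and SMPX, a small muscle protein, 0 against 32. MYOD1, the transcription factor of skeletal muscle, had 0 against 3. These genes were all called negative. The 4 rows called positive belonged to LMOD3, ENO3 and HRC, and each had 0 negative-side reads. In mackerel 22 of the 70 genes had 26 rows, of which 14 had an adjusted p, 2 were called positive and 1 negative. The rows called positive were of ENO3 (134 against 66 reads) and HSP90AA1 (95 against 50), and the negative one of LDHB (2 against 5). The list was not limited to genes specific to muscle. Over all mackerel rows with an adjusted p these shares were 14.1% and 10.8%.

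For several other cell types more marker rows were called negative than positive in sardine, on fewer reads, but the lists were mixed. Over all sardine rows 30.5% were called positive and 16.1% negative. Of 11 rows of smooth muscle genes 2 were called positive and 5 negative, with 0.0159% of positive-side and 0.0814% of negative-side normalized counts. Smooth muscle actin ACTA2 had 11 reads against 31. MYLK (7.78 ± 1.93 in the authors' deposited table) and a CALD1 row (5.10 ± 2.01) were called positive, with 0 negative-side reads each. Of 5 rows for endothelial and stellate cells 0 were called positive and 4 negative, of 5 erythrocyte rows 0 and 3, of 3 leukocyte rows 0 and 2, and of 2 bile duct rows 1 and 1. Of 14 hepatocyte rows 13 were called positive and 0 negative. The marker lists were also chosen with earlier results of these data known, so nothing is read from their counts in either species. The part of tissue makeup in the muscle values was not tested.

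In mackerel the same lists gave other counts. Over all mackerel rows with an adjusted p 14.1% were called positive and 10.8% negative. Of 15 hepatocyte rows 0 were called positive and 5 negative in the authors' deposited table. For smooth muscle the calls were 1 positive and 0 negative of 8 rows, and for endothelial and stellate cells 1 and 3 of 7. For erythrocytes they were 0 and 1 of 3, for leukocytes 0 and 1 of 5, and for bile duct 1 and 2 of 7.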

How the data were processed

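Liver RNA of 20 male fish was sequenced from TruSeq libraries; CASAVA 1.8, DESeq2 and the zebrafish build GRCz10 are named in the submitters' processing notes. The sources used here do not name the aligner, counter, filters or the version of DESeq2. Per the file headers, each deposited row holds a signal, the mean normalized count, besides the log2 fold change with its SE, the Wald statistic (a score) and the raw and adjusted p-value. Sardine rows are zebrafish RefSeq transcripts and mackerel rows fugu gene models, without coordinates. All values come from these tables, and no fit was repeated.

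Whole reads were recovered from the deposited means with Python 3.11.15, numpy 2.4.6, pandas 2.3.3 and scipy 1.17.1, and the method was tested on simulated data. Sardine rows were searched only where the positive-side part of the mean, estimated from the fold change, was under a limit. Of 5513 sardine rows searched, 5504 had 1 solution, 9 several and 0 none. For the other sardine rows the negative-side reads were estimated from the deposited mean and fold change. In mackerel 5 rows had several solutions, and the pair nearest the fold change was taken. In sardine rows with over 10 positive-side reads, the solved log2 ratio differed from the deposited fold change by a median of 0.0124 and at most 0.198. The search was widened after member values were seen, so that NEB and rows of DES, MB and MYH7 could be solved; the closing section gives the values without this.

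A row was called at an adjusted p under 0.05 in the authors' table. A side at 0 was given a floor of 3 reads. Intervals are exact binomial at 95%. The members, the fibre classes and the other lists were chosen with earlier results of these data known. By the rule for named genes, called rows are given in full, with the best-read rows of the others. Alternatives were other thresholds, a minimum mean of 10, 1 row per symbol, looser symbol matching, rows with reads on both sides, curated records, bounds and the exact test.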

Additional observations from a re-analysis of the deposited data

Results flagged for a closer look

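Positive-side libraries far from the other 4 were sought in 14 items of the sardine table, namely member rows with at least 10 positive-side reads and sums over members and classes. For each item the gap of a library to its nearest neighbour was divided by the range of the 5. In 3 of the 14 items this was above the critical value for 5 values. That value gives about 1 in 20 by chance for normally distributed values. Small read numbers need not follow this rate, and the items overlap, so the counts are descriptions. PVALB (1.0) had all 14 reads in library E and was searched only because of them, so its value followed from the minimum of 10 reads and is a description. For the CKM row NM_130932.1 (0.8134) library E had 12.8 normalized counts, against 2.46 to 4.38 in the other 4. For the summed fast genes (0.8061), which include the same PVALB reads, it had 28.4, against 1.30 to 6.56. The sum over all members gave 0.613, and 0.448 without PVALB, an item added after PVALB was seen.

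These numbers depend on how far reads were searched. With the narrower limit, under which NEB has no solution, 6 of 13 items passed: those above, the sum of all members (0.839), the same without PVALB (0.766) and the shared class (0.779). With the narrower window 3 of 14 passed, and with both 6 of 13.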

How the results depend on the processing

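No paired analysis was possible because no replicate number in the labels ties exposed to control fish and the tables hold no values per fish. For the same reason the authors' calls could not be recomputed without single libraries. In sardine the 45 negative calls of 65 rows became 27 of 35 with 1 row per symbol. The share of all rows called is not given here for the other settings, so nothing is read from the counts below. The 4 positive calls became 2 at an adjusted p under 0.01, 1 with a mean of at least 10, 2 with 1 row per symbol, and 0 both with reads on both sides and among curated records. The sardine median of -5.62 moved to -9.32 with a mean of at least 10 and to -4.00 with rows at 0 at their bound. In mackerel the 3 negative calls became 8 at an adjusted p under 0.1. The 1 positive call became 0 at an adjusted p under 0.01, with a mean of at least 10, with 1 row per symbol, with reads on both sides and by the exact test. The mackerel median of -0.37 moved to -2.53 with a mean of at least 10, where 2 rows are left. The positive-side share of 10.99% became 0.04275% without SYNPO2L, an alternative chosen after seeing the data. The ratio of 187.3 between the sardine sides, over solved rows only, ranged from 170.6 to 233.5 without single positive-side libraries, highest without library E. It was 214.2 with the narrower limit of the read search, 170.9 with the narrower window and 195.8 with both; these too were chosen after seeing the data. The muscle counts of the sardine positive side were 2.23 times those of the negative side with SYNPO2L and 0.00869 times without it, which turns the direction. No median changed sign in the alternatives run, with that of mackerel at 0.00 when rows at 0 were at their bound. By class, the negative sardine calls with 1 row per symbol became 5 of 8 for heart, 6 of 6 for heart and slow and 1 of 1 for slow. With reads on both sides they became 6 for heart and slow and 1 for slow. Fast went to 8 at an adjusted p under 0.1 and 2 with a mean of at least 10, and shared to 9 with a mean of at least 10. Without library E the fast share of the positive side fell to 8.71%, against 15.7% over all 5 libraries, and the slow share to 0.00%, against 0.505%. Beyond what each setting leaves out, the cause of a change was not tested. Depth limits the mackerel values, where 24 of 36 rows have under 3 reads. The sardine positive side had few member reads outside SYNPO2L and CASQ2. Over all rows it summed to 215801 normalized counts as a mean of 5 libraries, against 110948 on the negative side.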
